A study of Arabidopsis thaliana with 12 samples.

Results

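GLDH (AT3G47930), AT3G52960 and GLX2-1 (AT2G43430) are 3 *Arabidopsis thaliana* genes grouped here under defence against oxidants and reactive aldehydes. They were chosen by name, with earlier results of these data known. Each has 1 probe that the platform annotation gives to that gene only. They are 3 of 691 genes with such a probe on an array read as 3438 features. Total RNA was taken from wild-type plants of ecotype Columbia 0. The control group holds 6 samples of plants kept in growth light of 80 µE, titled 0 h. The recovery group holds 6 samples of plants exposed to 1000 µE for 1 h and then put back at 80 µE, titled 2 h. The labels give the time back at 80 µE as 2 h in the titles and descriptions and as 1 h in the source names. Sampling time cannot be told apart from light. The question was whether transcripts of these genes differed between plants recovering from strong light and plants that had not left growth light. The labels name plants and no tissue. Of the green tissue markers, the antenna gene LHB1B2 stood at a log2 intensity of 3.95 ± 0.23 in control and 4.19 ± 0.20 in recovery samples, and the photosystem I gene PSAN at 2.80 ± 0.38 and 2.83 ± 0.49 (SD, n = 6 per group). Neither marker passed the test between the groups. Their log2 differences, 0.23 and 0.03, were -0.53 and -0.63 under median centring. The pairs of PSAN differed in effect (limma F-test, adjusted p = 0.0206), at -0.55, 1.03 and -0.40, and 24.9% of all features passed that test. Root and pollen markers had no probe of their own.

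Ascorbate is the most abundant water-soluble antioxidant of leaves, and chloroplasts use it to remove the hydrogen peroxide made when light exceeds what photosynthesis can use. GLDH, L-galactonolactone dehydrogenase, is the last enzyme of ascorbate synthesis. It sits at the inner mitochondrial membrane and passes electrons to cytochrome c. AT3G52960 codes for the plastid type II peroxiredoxin, a thiol enzyme that reduces peroxides without ascorbate. GLX2-1 is named after the glyoxalase II family. Glyoxalase II enzymes hydrolyse the glutathione thioester that glyoxalase I makes from methylglyoxal, a toxic by-product of sugar metabolism. Whether the GLX2-1 protein does so was not tested here. The GLX2-1 protein is mitochondrial.

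Samples 1 and 2 of each group were alike, as were samples 3 and 4 and samples 5 and 6. Since no label says whether they are separate plants, the p-values below measure only the spread between samples, part of which may be technical. Over all features, the difference between recovery and control in samples 3 and 4 had a correlation of -0.03 with that in samples 1 and 2 and of -0.01 with that in samples 5 and 6, while those of samples 1 and 2 and of samples 5 and 6 had one of 0.50. The deposited median intensity was 0.426 to 0.458 in recovery 1, 2, 5 and 6 and 0.196 to 0.284 in the other 8 samples. Each result is therefore given by pair as well as over all samples. Values are log2 intensities after quantile normalisation, with a floor at -5.07, unless the deposited scale is named. None of the 36 values of the 3 genes was at the floor.

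None of the 3 genes passed the test between recovery and control, which was limma with a Benjamini-Hochberg adjusted p under 0.05 over 3438 features and called 3.03% of them. GLDH had a lower mean in recovery plants, GLX2-1 a higher one, and AT3G52960 split each group into samples far apart. The recovery and control values overlapped for all 3 genes. Over the whole array, 4.42% of features had groups that did not overlap. In bulk RNA, fewer cells of a type and less RNA per cell cannot be told apart.

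**Figure D1:**
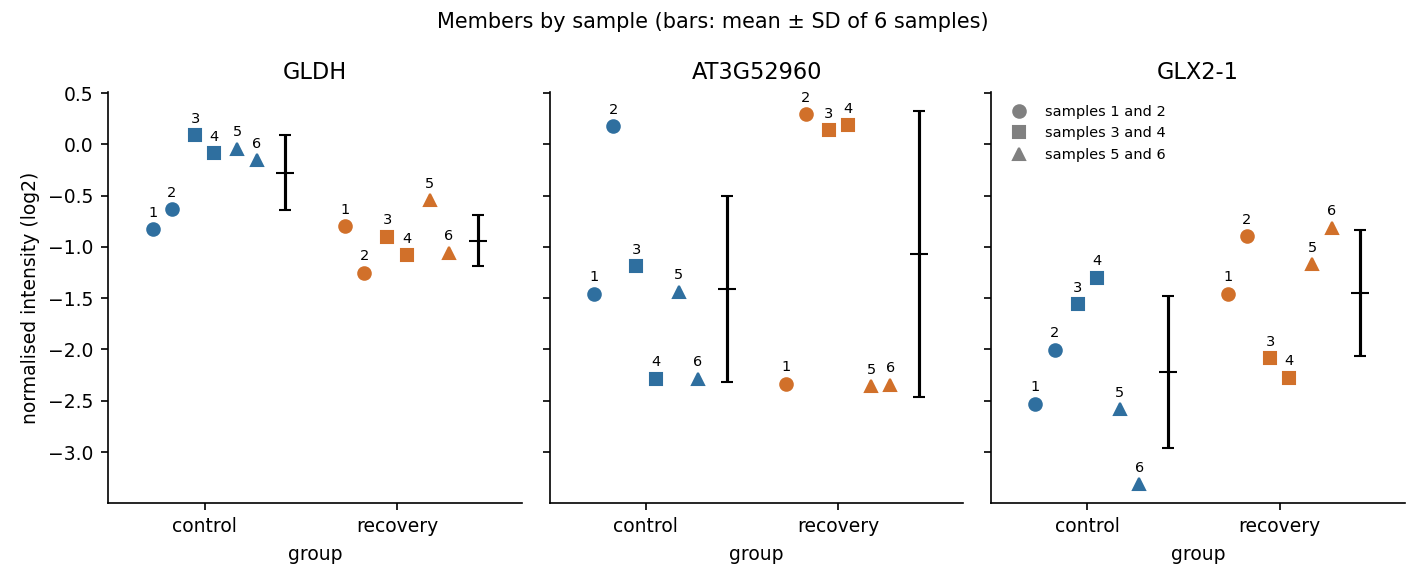
Normalised log2 intensity (y axis) of GLDH, AT3G52960 and GLX2-1 in each control and recovery sample (x axis). Numbers are replicate numbers, marker shapes the pairs of samples, and bars the mean ± SD of 6 samples. GLDH spans -0.83 to 0.09 in control and -1.25 to -0.54 in recovery samples. For AT3G52960, recovery 2, 3 and 4 stand apart from recovery 1, 5 and 6. For GLX2-1, samples 3 and 4 are the highest controls and the lowest recovery samples.

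Control plants had 1.58 times the GLDH level of recovery plants, a difference that did not pass the test. The deposited intensities of control 1 to 6 were 0.558, 0.646, 1.02, 0.895, 0.747 and 0.688, while recovery 1 to 6 gave 0.786, 0.601, 0.404, 0.345, 0.863 and 0.638. After normalisation control 1 to 6 read -0.83, -0.64, 0.09, -0.09, -0.04 and -0.16, and recovery 1 to 6 read -0.80, -1.25, -0.90, -1.08, -0.54 and -1.06. Controls 3 to 6 lay above every recovery sample, whereas controls 1 and 2 lay among them. The level was -0.28 ± 0.37 in control and -0.94 ± 0.25 in recovery samples (mean ± SD, n = 6 in each group), which is a log2 fold change of -0.66 ± 0.21 (SE) and a 95% interval of -1.11 to -0.21. The limma p was 0.00734 unadjusted and 0.110 adjusted over all features, and an exact two-sided permutation test over the 12 samples gave p = 0.0130. With each pair averaged, 3 against 3, the exact permutation p was 0.1, the smallest that this number of samples allows.

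GLDH was lower in recovery in each of the 3 pairs of samples. Samples 1 and 2 differed by -0.29, samples 3 and 4 by -0.99 and samples 5 and 6 by -0.70. A difference of 1 sign in all 3 pairs was found for 33.1% of all features. By replicate number, recovery was lower in 5 of 6, and number 1 had a difference of 0.03. The test for a difference in effect between the pairs was not passed (limma F-test, adjusted p = 0.304). With the pair number as a fixed block, GLDH was called (limma, adjusted p = 0.0330) in a fit that called 12.4% of features. With the pair within each group as a random block its adjusted p was 0.506. The 2 samples of a pair differed by 0.11 to 0.51.

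The direction of GLDH within pairs depended on how the columns were scaled. On the values as deposited, samples 1 and 2 differed by 0.20, samples 3 and 4 by -1.35 and samples 5 and 6 by 0.05. All features together were shifted there, with medians of 0.56, -0.18 and 0.90 in the 3 pairs, and GLDH lay below that median in each of them. On that scale the pairs differed in effect by the test (limma F-test, adjusted p = 0.00877), and over all 12 samples GLDH had a log2 fold change of -0.37 ± 0.26 (SE), where all features had a median of 0.43. Under median centring and cyclic loess GLDH was lower in recovery in all 3 pairs, with differences of -0.51, -1.23 and -1.04 and of -0.06, -1.18 and -0.65.

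AT3G52960 varied more within groups than between them. The deposited intensities of control 1 to 6 were 0.359, 1.21, 0.360, 0.141, 0.259 and 0.132, while recovery 1 to 6 gave 0.330, 1.37, 1.01, 1.05, 0.292 and 0.300. After normalisation control 1 to 6 read -1.46, 0.18, -1.19, -2.28, -1.44 and -2.28, and recovery 1 to 6 read -2.33, 0.29, 0.14, 0.18, -2.36 and -2.35. Recovery 2, 3 and 4 and control 2 thus lay between 0.14 and 0.29, and the remaining 8 samples lay below them, at -1.19 or lower. The level was -1.41 ± 0.91 in control and -1.07 ± 1.40 in recovery samples (mean ± SD, n = 6 in each group), which is a log2 fold change of 0.34 ± 0.63 (SE) and a 95% interval of -1.04 to 1.73 (limma, adjusted p = 0.817). An exact two-sided permutation test over the 12 samples gave p = 0.591.

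For AT3G52960 the pairs of samples had differences of opposite sign, which were -0.38 (1 and 2), 1.90 (3 and 4) and -0.49 (5 and 6), and recovery was higher in 3 of 6 replicate numbers. The test for a difference between the pairs was not passed (limma F-test, adjusted p = 0.304). The 2 samples of a pair were themselves far apart in places. Sample 2 read 2.63 above sample 1 in recovery and 1.63 above it in control plants. Only 2.36% and 5.88% of all features differed as much between those samples, whose median difference was 0.31 and 0.21. In recovery samples 3 and 4 and in recovery samples 5 and 6, by contrast, the readings of AT3G52960 differed by 0.05 and 0.01. Without samples 3 and 4 of both groups the log2 fold change was -0.44 (limma, adjusted p = 0.788), so its sign rests on that pair. It was 0.07 without recovery 2 and 0.66 without control 2. On the deposited scale samples 1 and 2 had a difference of 0.03, samples 3 and 4 one of 2.20 and samples 5 and 6 one of 0.68.

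Recovery plants had 1.70 times the GLX2-1 level of control plants over all samples, which did not pass the test, and the difference had opposite signs in different pairs. The deposited intensities of control 1 to 6 were 0.155, 0.230, 0.257, 0.325, 0.101 and 0.0540, while recovery 1 to 6 gave 0.548, 0.743, 0.151, 0.128, 0.606 and 0.733. After normalisation control 1 to 6 read -2.53, -2.00, -1.56, -1.30, -2.58 and -3.31, and recovery 1 to 6 read -1.45, -0.90, -2.08, -2.27, -1.17 and -0.81. Recovery 2, 5 and 6 lay above every control, while recovery 3 and 4 lay below controls 2, 3 and 4. The level was -2.22 ± 0.74 in control and -1.45 ± 0.61 in recovery samples (mean ± SD, n = 6 in each group), which is a log2 fold change of 0.77 ± 0.38 (SE) and a 95% interval of -0.06 to 1.59. The limma p was 0.0664 unadjusted and 0.321 adjusted over all features, and an exact two-sided permutation test over the 12 samples gave p = 0.0779. With each pair averaged, 3 against 3, the exact permutation p was 0.2. With the pair within each group as a random block the limma adjusted p was 0.752.

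By pair, GLX2-1 read 1.09 higher in recovery for samples 1 and 2 and 1.96 higher for samples 5 and 6, while samples 3 and 4 gave -0.75, and the 2 groups did not overlap within any of the 3 pairs, which held for 27.9% of all features. The 2 samples of a pair differed by 0.19 to 0.73. The pairs differed in effect by the test (limma F-test of condition by pair, adjusted p = 0.0124), as did 24.9% of all features, in a fit whose only replicates are the 2 samples of a pair. The mean effect of samples 1 and 2 and of samples 5 and 6 exceeded that of samples 3 and 4 by 2.27 with a standard error of 0.40. This contrast was chosen with its direction known and is given as a description. Without samples 3 and 4 of both groups GLX2-1 was higher in recovery by 1.52 on the log2 scale with a standard error of 0.29 (limma, adjusted p = 0.0203), higher in 4 of the 4 replicate numbers left. That fit leaves out the 1 pair of opposite sign, has no term for the pairs and called 12.1% of features. Leaving out samples 1 and 2 gave a log2 fold change of 0.60 (limma, adjusted p = 0.610), and leaving out samples 5 and 6 gave 0.17 (adjusted p = 0.866). Under median centring, cyclic loess and the deposited scale the signs within pairs were the same as after quantile normalisation, with values of -0.93, -0.87 and -1.05 in samples 3 and 4.

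**Figure D2:**
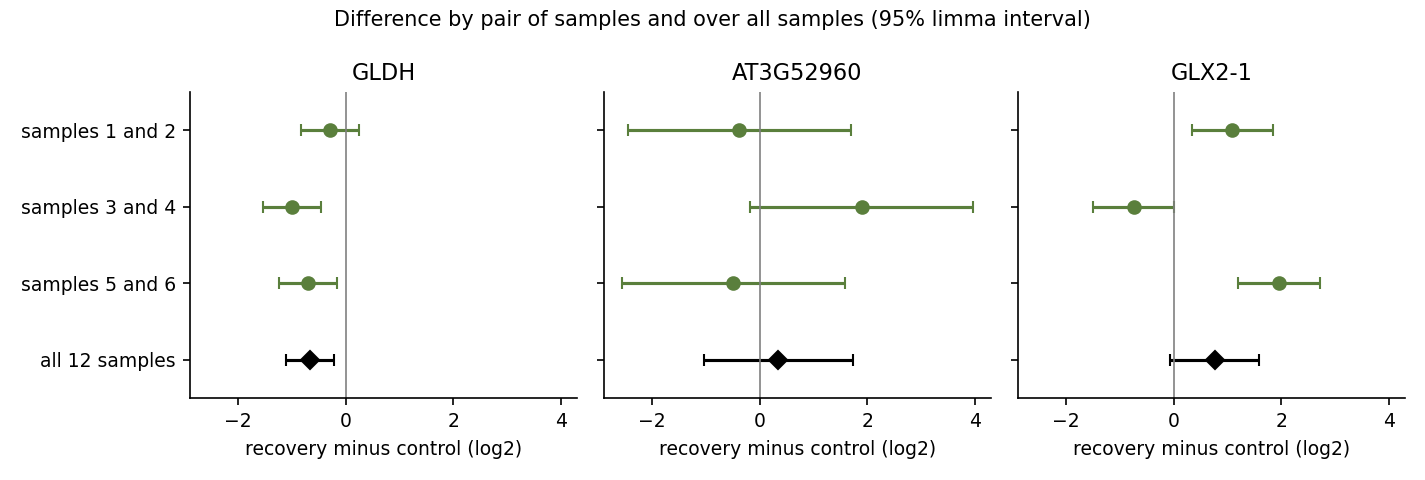
Recovery minus control on the log2 scale (x axis) for each pair of samples (circles) and for all 12 samples (diamonds), with 95% limma intervals. Circles come from the fit with a term for each pair and group, diamonds from the comparison over all samples. The intervals of the circles measure only the spread between the 2 samples of a pair, which may be technical. GLDH is below 0 in each pair and GLX2-1 reads 1.09, -0.75 and 1.96. The pair intervals that include 0 are that of GLDH in samples 1 and 2 (-0.83 to 0.25), that of GLX2-1 in samples 3 and 4 (-1.51 to 0.01) and all 3 of AT3G52960.

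**Figure D3:**
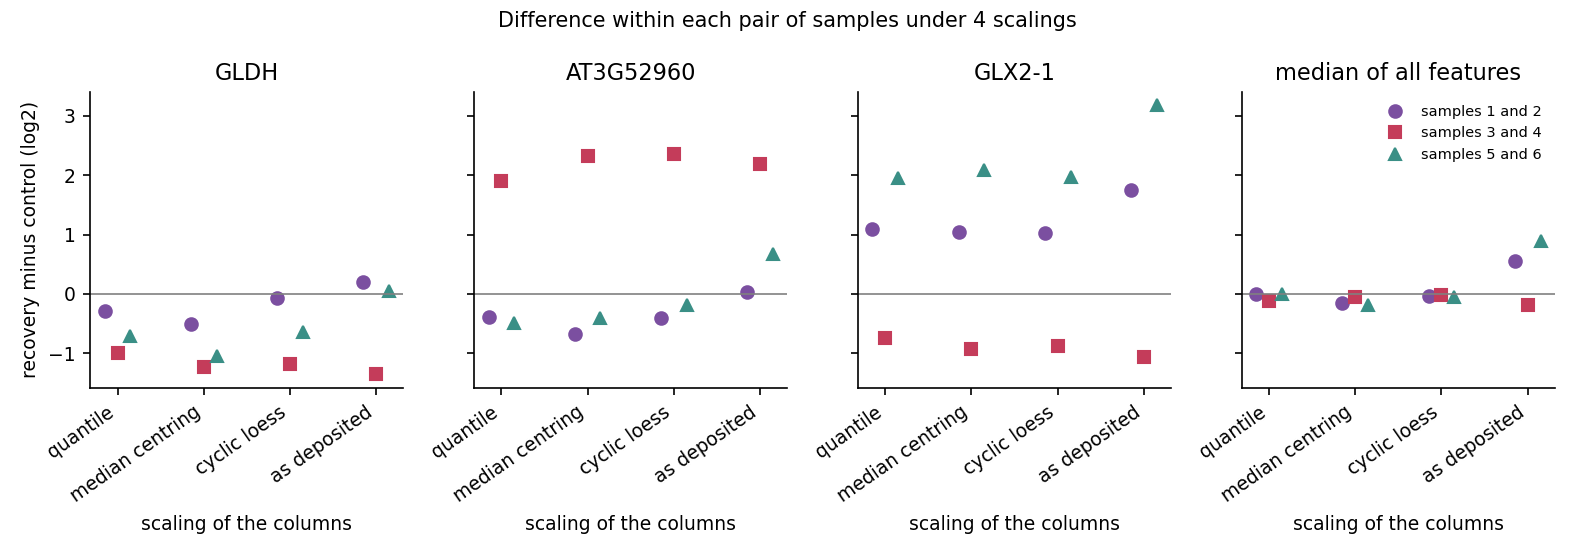
Recovery minus control (log2, y axis) in each pair of samples under 4 scalings of the columns (x axis), for the 3 genes and for the median of all features. On the deposited scale the median of all features is 0.56, -0.18 and 0.90 in the 3 pairs. GLX2-1 keeps its signs under all 4 scalings, whereas GLDH is above 0 in samples 1 and 2 and in samples 5 and 6 on the deposited scale.

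The 3 genes divided their variation differently. For GLDH, 57.4% of the sum of squares over the 12 samples lay between recovery and control, against a median of 10.05% over all features, and its SD within groups was 0.31, against a median of 0.75. For GLX2-1, 27.6% lay between the groups and 59.7% in the difference of effect between pairs. For AT3G52960, 2.47% lay between the groups and 40.4% between the 2 samples of a pair, where all features had a median of 18.6%. Across the same 12 samples, which form pairs, Pearson's r was -0.44 between GLDH and AT3G52960, -0.33 between GLDH and GLX2-1 and -0.08 between AT3G52960 and GLX2-1.

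The genes whose log2 values followed each of the 3 most closely over the 12 samples were sought among 557 others with a probe of their own and at most 2 values at the floor. Nearest to GLDH were AT4G20300 (Pearson's r = 0.91), APS4 (AT5G43780, r = 0.89), which codes for an ATP sulfurylase of sulfate assimilation, and AT3G56290 (r = 0.88). AT3G56290 was lower in recovery by the test, with a log2 fold change of -1.83 ± 0.24 (SE) (limma, adjusted p = 0.00302). Its pairs differed in effect (limma F-test, adjusted p = 0.0178), as did those of 24.9% of all features. AT4G20300 had a log2 fold change of -0.61 and APS4 one of -0.89, neither called. Chosen for their likeness to GLDH over the same 12 samples, they also had their most negative difference in samples 3 and 4, at -1.02 for AT4G20300, -1.68 for APS4 and -2.60 for AT3G56290. Nearest to GLX2-1 were AT4G29890 (r = 0.91), which codes for a choline monooxygenase-like protein, AT2G04360 (r = 0.87) and AT2G22890 (r = 0.87). Their differences in samples 3 and 4 were -0.43, -0.37 and -0.49, and those in the other pairs were between 0.68 and 2.44, a change of sign between pairs that their choice by likeness to GLX2-1 favours. The pairs of AT2G04360 did not differ in effect by the test (limma F-test, adjusted p = 0.0610). Nearest to AT3G52960 was AT5G10910 (r = 0.82), followed by AT3G25840 and AT3G14890 (r = 0.71 and 0.70). AT5G10910 also had a high control 2, at -0.14, where the other controls lay between -3.20 and -1.82. Choice by likeness to AT3G52960, which had its highest control there, favours this. Control 2 was also the highest control for AT3G14890, at -1.22, and was not for AT3G25840, where it read -1.80 and another control -1.60.

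Of 84 loci in 5 lists of ascorbate synthesis, ascorbate and glutathione recycling, peroxiredoxins with their reductants, the glyoxalase system, and superoxide dismutases, catalases and glutathione peroxidases, 7 had a probe of their own, the 3 genes included. None of the 7 passed the limma test in either direction, where 1.19% of all features were called higher and 1.83% lower. Their median log2 fold change was 0.06, against -0.02 over all features. No gene of ascorbate and glutathione recycling was among them, so GLDH stands here without the peroxidases and reductases that use and restore ascorbate. Another 5 probes were assigned to several genes that included a listed locus and were not used.

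Beside AT3G52960, 3 genes of the systems that keep peroxiredoxins reduced were measured. SRX, the sulfiredoxin that restores overoxidised peroxiredoxins of the 2-cysteine type, had a log2 fold change of 0.36 ± 0.39 (SE). It rested on control 4, which read -4.09 where the next lowest control read -2.25, and was -0.00033 without that sample. NTRC, the plastid NADPH-dependent thioredoxin reductase that reduces 2-cysteine peroxiredoxins, had one of 0.06 ± 0.40 (SE). Its pairs differed in effect (limma F-test, adjusted p = 0.00125), as did those of 24.9% of all features. The pairs of NTRC gave 0.21 for samples 1 and 2, -1.58 for samples 3 and 4 and 1.54 for samples 5 and 6. NTRC and GLX2-1 both read below 0 in samples 3 and 4 only, the pair that stood apart over all features. None of the other measured list genes did so, and the share of all features that did was not counted. AT3G52960 and SRX read above 0 in that pair, at 1.90 and 1.02. AT2G04700, the catalytic subunit of ferredoxin-thioredoxin reductase, had a log2 fold change of -0.08 ± 0.22 (SE), which was 0.40 on the deposited scale. Its pairs also differed in effect (limma F-test, adjusted p = 0.0391), at -0.65, 0.01 and 0.40. The copper chaperone gene of superoxide dismutase, CCS, had one of -1.72 ± 0.45 (SE) (limma, adjusted p = 0.0612). For CCS 3 of 12 values were at the floor, so that its size on this scale may be understated. It passed the limma test without samples 3 and 4 (adjusted p = 0.00269), as 12.1% of all features did, and missed it with the pair within each group as a random block (adjusted p = 0.325). The log2 fold change of CCS was smaller in size under other scalings, at -1.43 with median centring and -0.87 on the deposited scale.

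**Figure D4:**
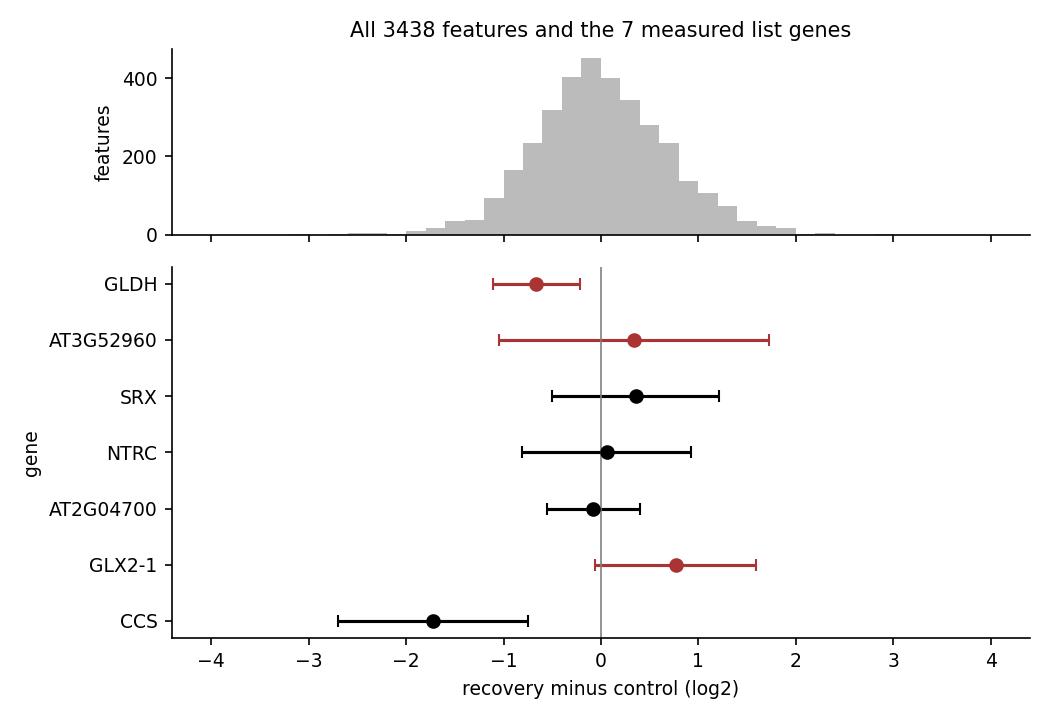
Recovery minus control on the log2 scale (x axis) for all 3438 features (upper panel, number of features per bin) and for the 7 list genes with a probe of their own (lower panel, points with 95% limma intervals, GLDH, AT3G52960 and GLX2-1 in red). The intervals of GLDH and CCS lie below 0 without adjustment, those of the other 5 genes include 0, and none of the 7 passed the test over all features.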

How the data were processed

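The 12 one-channel profiles were deposited by the authors as intensities on a linear scale from 0 to 100. How they were background-corrected and scaled, and on which array, is not given in the sources used here. With R 4.3.3 and limma 3.58.1 the columns were quantile-normalised, values under the 5th percentile of positive values (0.0298) were raised to it, and log2 was taken. Of 3439 probes, 692 were assigned to 1 gene, 870 to several and 1877 were unnamed here. Symbols came from RefSeq (TAIR10.1), which held 690 of the 692. A gene's probes were averaged, leaving 3438 features. No positions are given, since the series names no build.

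Groups and replicate numbers came from the sample titles. Recovery and control were compared with limma (lmFit, eBayes, two-sided, Benjamini-Hochberg over all features, no covariate), and a difference between pairs with limma's F-test of condition by pair. The fits were tested on simulated data in which all samples were independent, and the outcome is not given here. The test of a difference between pairs was simulated with less noise than the main comparison. Samples of a pair are alike in the real data, and the simulation does not cover this likeness. The genes, lists and tests were chosen with earlier results of these data known. Named genes were the 3 members, all list genes with a probe of their own, and the 3 genes most correlated with each member.

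Whether numbers pair the samples was checked before the fits were compared. Deviations from the group mean correlated at 0.11 to 0.462 between same-numbered samples of the 2 groups and at 0.00796 at most across pairs. Between samples of the same pair with another number they correlated at 0.0814 to 0.168, so these ranges overlap. All 12 samples had their best match in their own number. The numbers were therefore taken to pair the samples. The comparison itself was planned without a block, so its p-values and the permutation tests over 12 samples do not use the pairing, and the fit with the number as a block is an alternative. Within a group, samples of a pair correlated at 0.853 to 0.942. Alternatives covered scaling, floor, filter, variance model, blocks for number and pair, and samples left out. The number of arrays limits the precision.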

Additional observations from a re-analysis of the deposited data

Results flagged for a closer look

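The GLX2-1 difference between recovery and control differed between the pairs of samples (limma F-test, adjusted p = 0.0124, with 1.09, -0.75 and 1.96 in samples 1 and 2, 3 and 4, and 5 and 6). The same test was passed by 24.9% of all features. The pairs are groups of replicate numbers, not conditions of the study. In SRX, control 4 read -4.09, far below the next lowest control at -2.25, with a gap of 0.706 of the group's range. It was 1 of 36 groups of 6 samples searched, where chance gives about 1 in 20 for independent values.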

How the results depend on the processing

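GLDH kept a log2 fold change below 0 and GLX2-1 one above 0 in all 27 alternative fits, over -0.93 to -0.37 and 0.17 to 1.52. Each was called in 1 of them, GLDH with the pair number as a fixed block (-0.66, limma adjusted p = 0.0330) and GLX2-1 without samples 3 and 4 (1.52, adjusted p = 0.0203). AT3G52960 had its sign reversed in 1 of 27, without samples 3 and 4 (-0.44), and was called in none (adjusted p 0.370 to 0.986). The fits that changed only the floor percentile, the filter, the variance model or the blocks repeated the main log2 fold changes of the 3 genes. So did the fit with averaged pairs. The signs could not change in these fits, so the 27 are not 27 separate checks of sign. With pairs averaged, the exact permutation p of GLDH (-0.66) was 0.1. The difference in its effect between pairs passed the test on the deposited scale (adjusted p = 0.00877). Leaving out 1 sample at a time gave -0.77 to -0.59 for GLDH, 0.07 to 0.66 for AT3G52960, 0.55 to 0.95 for GLX2-1 and 42 to 93 called features, against 104 over all samples. With the replicate number as a block (replicate block) 106 features passed, with adjusted p of 0.0980 for GLDH, 0.699 for AT3G52960 and 0.359 for GLX2-1, and no call on the 3 genes changed. Called features numbered 65 under median centring (14 higher, 51 lower, against 41 and 63), 60 under cyclic loess, 69 with features above the floor in at least 6 samples, 425 with the pair number as a fixed block, 3 with the pair as a random block and 0 in limma with averaged pairs (203 at an unadjusted p under 0.05). On the deposited scale 79 were higher and 30 lower. They numbered 28 without samples 1 and 2, 416 without samples 3 and 4, 10 without samples 5 and 6, and 27 without sample 2 of both groups, a setting chosen after the data were seen. SRX had a log2 fold change of -0.00033 without control 4, against 0.36, also chosen after the data were seen.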
